A study of Mus musculus with 13 samples.

Results

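The genes described here are 10 members of the Rap1 signaling module of endothelial cells (ECs): the small GTPases Rap1a and Rap1b, their effectors Rasip1 and Radil, the GTPase activating proteins Arhgap29 and Arap3, and the cerebral cavernous malformation (CCM) genes Heg1, Krit1, Ccm2 and Pdcd10. They were taken by symbol, 10 of 24421 genes listed for sprout ECs and 10 of 24984 listed for tumor ECs, and the group was chosen by the sprout result itself, because Arap3 and Rasip1 stood among its strongest decreases. Values of the 10 genes in sprout ECs are therefore a description, with no test, and the tumor ECs, which that choice did not use, carry the tests.

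RNA-Seq was measured in mouse cells of 2 kinds, both sorted as ECs. Sprout ECs (C57BL/6x129, labelled female) were CD31+ cells sorted from embryoid bodies (EBs), clusters of differentiating embryonic stem cells that were moved into collagen I gel on day 8 and received 30 ng/ml VEGFA164. Apln STOP (n = 2 libraries) carries a gene trap in the sense orientation in Apln, the gene of the peptide Apelin, and Apln GO (n = 2) is its Cre-reverted sister line with the trap in the antisense orientation. STOP EBs received DMSO and GO EBs received 1000 nM Apelin (Pyr13), an assignment that the sample labels leave out and the study's legends give, so that trap, Cre exposure and added Apelin differed together and cannot be told apart. Tumor ECs (C57BL/6J, labelled C57BL6/J) came from tumors of injected E0771 mammary carcinoma cells. They were sorted, 100 per library, as cells positive for CD31 and CD105 and negative for CD45, the marker of immune cells. Apelin-depleted libraries (n = 3) came from Apln-/- mice with shApln tumors, and Apelin wild-type libraries (n = 6) from wild-type mice with shRenilla tumors. Deletion of Apln in the host and its knockdown in the tumor cells thus came together. The study's legends count the tumor libraries by tumors of the same number, whereas no source used here says that the sprout libraries of a group came from separate cultures, and p-values in sprouts then measure only the spread between these libraries.

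Rap1 is a small GTPase that is switched on by exchange factors (GEFs) and off by GTPase activating proteins (GAPs), and in ECs its active form strengthens cell junctions. Rasip1 and Radil bind active Rap1 and recruit Arhgap29 to the membrane, and Arap3 is a GAP for Arf proteins that is itself stimulated by Rap1. Krit1 (CCM1), another Rap1 effector, joins Ccm2 and Pdcd10 (CCM3) in the complex that the membrane protein Heg1 anchors at EC junctions, and loss of any of the 3 CCM proteins causes clusters of dilated, leaking brain vessels. The complex holds back the kinase MEKK3 (Map3k3) and, through it, the transcription factors Klf2 and Klf4.

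RefSeq promoter sequences (GRCm38.p6) were listed for 8 of the 10 genes, and the 250 bases before the start site are shown for 4 of them. Rasip1 and Arhgap29 are shown because their transcripts were lower together in STOP sprouts, and Ccm2 and Pdcd10 because theirs were nearly level, a choice made after the values were seen. For genes with 2 listed starts the first is shown. Capitals mark CCGGAA or AGGAAG, both built on the GGAA core that ETS transcription factors such as Erg bind, searched on both strands (TTCCGG and CTTCCT on the other strand), and neither motif contains the other.
Rasip1: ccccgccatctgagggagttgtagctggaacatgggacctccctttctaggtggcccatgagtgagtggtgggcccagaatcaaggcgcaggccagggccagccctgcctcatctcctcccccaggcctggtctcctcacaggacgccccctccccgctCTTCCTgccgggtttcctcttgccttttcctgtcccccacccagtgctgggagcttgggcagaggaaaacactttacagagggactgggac
Arhgap29: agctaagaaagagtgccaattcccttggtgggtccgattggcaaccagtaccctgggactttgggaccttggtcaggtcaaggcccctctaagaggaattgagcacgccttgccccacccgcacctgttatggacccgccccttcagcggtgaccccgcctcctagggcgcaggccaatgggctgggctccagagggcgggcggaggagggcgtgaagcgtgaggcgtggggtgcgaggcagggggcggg
Ccm2: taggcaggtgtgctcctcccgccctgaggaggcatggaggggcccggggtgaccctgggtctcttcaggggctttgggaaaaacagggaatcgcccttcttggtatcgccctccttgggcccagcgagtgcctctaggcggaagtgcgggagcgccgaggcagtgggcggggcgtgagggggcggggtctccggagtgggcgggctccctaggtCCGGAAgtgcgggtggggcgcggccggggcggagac
Pdcd10: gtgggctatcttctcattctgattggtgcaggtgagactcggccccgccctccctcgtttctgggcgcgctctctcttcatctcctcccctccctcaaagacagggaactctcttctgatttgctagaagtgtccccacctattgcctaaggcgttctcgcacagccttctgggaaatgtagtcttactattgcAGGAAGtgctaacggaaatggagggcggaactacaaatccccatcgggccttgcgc
The windows are chr7:45627287-45627536 on the plus strand for Rasip1, chr3:121952979-121953228 on the plus strand for Arhgap29, chr11:6546637-6546886 on the plus strand for Ccm2 and chr3:75556853-75557102 on the minus strand for Pdcd10. Rasip1 and Pdcd10 each hold 1 AGGAAG, Ccm2 holds 1 CCGGAA, and Arhgap29 holds neither. Among all 32851 listed promoters cut to the same length, 29.5% hold AGGAAG, 12% hold CCGGAA and 38.2% hold either. Heg1 also holds 1 AGGAAG and the first listed promoter of Krit1 holds 2 CCGGAA, whereas Rap1b and the first listed promoter of Radil hold neither. The window of Rasip1 has 5 CpG dinucleotides against 14 in Arhgap29, 20 in Ccm2, 11 in Pdcd10 and a median of 6 over all promoters. These matches are a description of letters and show no binding.

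The genes lie on 7 chromosomes of the mm10 build (GENCODE annotation on GRCm38). Rap1a is annotated at chr3:105727267-105801336 on the minus strand and Rap1b at chr10:117813871-117846035 on the minus strand. Rasip1 lies at chr7:45627488-45639093 (plus), Radil at chr5:142484839-142551098 (minus), Arhgap29 at chr3:121952541-122016753 (plus) and Arap3 at chr18:37972628-37998969 (minus). Heg1 lies at chr16:33684370-33771576 (plus), Krit1 at chr5:3803184-3845564 (plus), Ccm2 at chr11:6546887-6596744 (plus) and Pdcd10 at chr3:75516490-75556856 (minus). In this annotation 20.4% of the exonic bases of Rasip1 also belong to Izumo1, on the same strand, and 2.5% of those of Heg1 belong to Gm15657 on the opposite strand.

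Libraries held between 12327030 and 16804071 counts in sprout ECs and between 4661044 and 14455093 in tumor ECs. Apln had 976 and 984 counts (66.1 and 80.2 CPM) in STOP and 986 and 817 counts (58.2 and 65.9 CPM) in GO. This is no decrease in the trapped line, so directions in sprouts follow the labels. The study reports that the sense trap disrupted Apelin mRNA in the stem cells and that STOP EBs sprouted later under VEGF. In tumor ECs Apln had 71, 121 and 20 counts in the depleted libraries and 4262 to 6619 in wild-type. Of 12 endothelial markers fixed for this purpose, all 12 were lower in STOP and 11 passed the thresholds, with summed levels of 646 to 869 CPM (counts scaled to a library size of 1e+06) in STOP and 2470.2 to 2580 CPM in GO. Transcripts of 10 pluripotent cell markers, none at 0, summed to 5682 to 5863 CPM in STOP and 2199.6 to 3684 CPM in GO, and all 10 were higher in STOP, 2 of them (Dppa5a, Fgf4) past the thresholds. Mesenchymal and mural markers differed between replicates of both groups (lower and higher sum 486 and 2663 CPM in STOP, 654 and 2954 CPM in GO). The higher marker mean was in STOP replicate 2 and in GO replicate 1. Blood cell markers summed to 36.3 to 86.4 CPM in STOP and 123 to 229 CPM in GO with 0 of 8 tested genes called, and epithelial markers to 886 to 1175 CPM in STOP and 673 to 733 CPM in GO with 0 of 8 called. The 4 sprout libraries thus hold transcripts of all 5 marker lists in unequal amounts, and the part of this in the results below was not tested. In STOP the pluripotent sum was far above the endothelial sum, and in GO the ranges of these sums overlapped. The name sprout ECs therefore stands for the sort and not for a pure cell type. In bulk RNA, fewer cells of a type and less RNA per cell cannot be told apart.

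In sprout ECs Arap3, Rasip1 and Arhgap29 had the lowest log2 fold changes of the module, STOP over GO, with the mean CPM of Arap3 4.48-fold higher in GO, whereas Ccm2 and Pdcd10 were near level. The question of this comparison was what Apelin does to ECs in sprouts. Counts were scaled to CPM with TMM library sizes and the fold changes fitted with edgeR. Over all 14557 genes that passed the filter on low counts, 3.03% were called decreased in STOP (adjusted p under 0.05 and log2 fold change under −1) and 0.852% increased. All 10 members passed the filter. No call is given for them in sprouts, because the group was chosen by these values. The median log2 fold change was −0.42 over the members and 0.01 over all genes tested, with 9 members lower and 1 higher. All libraries of STOP lay below all of GO for 6 members, against 29.6% of all genes, and above for 0, against 31%. Without STOP replicate 1, or without GO replicate 1, the genes called decreased dropped from 441 to 136 and 135.

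Arap3 had 47.3 and 55.8 CPM in the libraries labelled STOP and 245 and 217 CPM in those labelled GO. The groups were far apart, and replicates within a group were close. Its mean level was 51.6 ± 5.99 CPM (SD, n = 2) in STOP and 231 ± 19.9 CPM in GO, 4.48-fold higher, a log2 fold change of −2.16 (SE 0.15) that ranked 125 from the lowest of all genes tested. Rasip1, the Rap1 effector needed for blood vessel lumens, had 38.0 and 35.4 CPM in STOP and 125 and 118 CPM in GO. Again no library of one group came near the other. The mean was 3.31-fold higher in GO (121 ± 5.20 CPM against 36.7 ± 1.86 CPM), with a log2 fold change of −1.72 (SE 0.14) and rank 327 from the lowest.

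Arhgap29, the GAP that Rasip1 and Radil recruit, had 59.5 and 96.8 CPM in STOP and 206 and 181 CPM in GO. The groups did not overlap, although the STOP replicates differed by more than those of Arap3 or Rasip1. Its log2 fold change was −1.31 (SE 0.24), and −0.98 without STOP replicate 1. Radil, the partner of Rasip1, was the only member with a higher mean in STOP. It had 36.2 and 21.1 CPM in STOP and 17.2 and 23.2 CPM in GO, so that the groups overlapped, and its log2 fold change was 0.51 (SE 0.29), or 0.09 without STOP replicate 1.

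The GTPases were nearer to level. Rap1b had 162 and 169 CPM in STOP and 232 and 223 CPM in GO, with a log2 fold change of −0.46 (SE 0.13) and no overlap between groups. Rap1a had 34.6 and 45.1 CPM in STOP and 42.8 and 50.0 CPM in GO, which overlapped, with a log2 fold change of −0.22 (SE 0.18) that was −0.02 without STOP replicate 1 and −0.43 without STOP replicate 2.

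**Figure D1:**
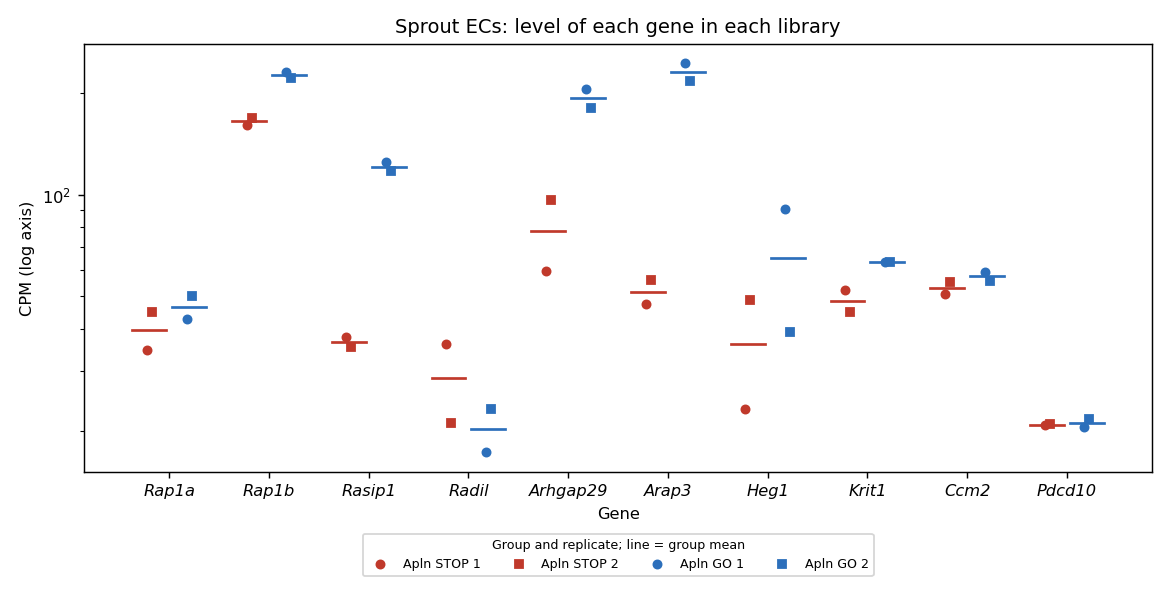
Level of each member in CPM (log axis) in each sprout EC library; red points are Apln STOP, blue points Apln GO, the marker shape gives the replicate and the line the group mean. Arap3 lies at 47.3 and 55.8 CPM in STOP and at 217 and 245 CPM in GO, whereas Pdcd10 lies between 20.5 and 21.7 CPM in all 4 libraries.

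Of the CCM genes, Heg1, the junctional receptor of the complex, varied most between replicates. It had 23.2 and 48.9 CPM in STOP and 91.0 and 39.2 CPM in GO, the groups overlapped, and the log2 fold change of −0.86 (SE 0.64) became −0.40 without STOP replicate 1, −0.13 without GO replicate 1, −1.34 without GO replicate 2 and −1.51 without STOP replicate 2. In both groups the replicate with more Heg1 was also the one with more mesenchymal and mural marker transcripts, whose part in this was not tested. Krit1, which links Rap1 to the complex, had 52.3 and 44.8 CPM in STOP and 63.2 and 63.0 CPM in GO, a log2 fold change of −0.38 (SE 0.15) without overlap. Ccm2, the scaffold of the complex, had 50.8 and 55.3 CPM in STOP and 59.1 and 55.6 CPM in GO, groups that lay next to each other without overlap, with a log2 fold change of −0.11 (SE 0.14), or −0.03 and −0.19 without STOP replicate 1 and 2. Pdcd10, the third CCM protein, had 20.8 and 20.9 CPM in STOP and 20.5 and 21.7 CPM in GO, with a log2 fold change of −0.02 (SE 0.19). Its approximate 95% interval, given as a description, ran from −0.39 to 0.35, and with RSEM expected counts the value was 0.02.

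The members were also read relative to endothelial markers of the same library. On the scale of log2(CPM + 1) minus the mean of the 12 markers, Rasip1 stood at 0.14 and −0.25 in STOP and at −0.18 and −0.21 in GO, so that the groups overlapped and their means differed by 0.14. Arap3 stood at 0.45 and 0.40 in STOP and at 0.79 and 0.67 in GO, a difference of −0.31. The difference of Rasip1 was −0.06 without STOP replicate 1 and 0.33 without STOP replicate 2. Arhgap29 stood 0.50 higher in STOP than in GO (0.30 without STOP replicate 2), and the other 7 members between 1.03 (Heg1) and 2.29 (Radil) higher, with Heg1 at 0.46 without GO replicate 2, 0.65 without STOP replicate 2 and 1.599 without GO replicate 1. The marker mean itself was 5.15 and 5.43 in STOP and 7.15 and 7.10 in GO. A gene with level CPM therefore stood higher in STOP on this scale, as Pdcd10 did (1.82). With all 4 libraries Arap3 was thus lower in STOP by somewhat more than the marker mean, and the GTPases and CCM genes by less. The answer depended on the reference: Pecam1, the gene of the sorting marker CD31 that pluripotent mouse cells also express, had a log2 fold change of only −0.80 (SE 0.15) against −1.98 (SE 0.27) for the junction gene Cdh5. Relative to Pecam1 alone, the difference of STOP from GO on this scale was −1.34 for Arap3, −0.89 for Rasip1 and −0.53 for Arhgap29, and Heg1 was level. The other members were higher in STOP on this reference, from 0.35 (Rap1b) to 1.26 (Radil).

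**Figure D2:**
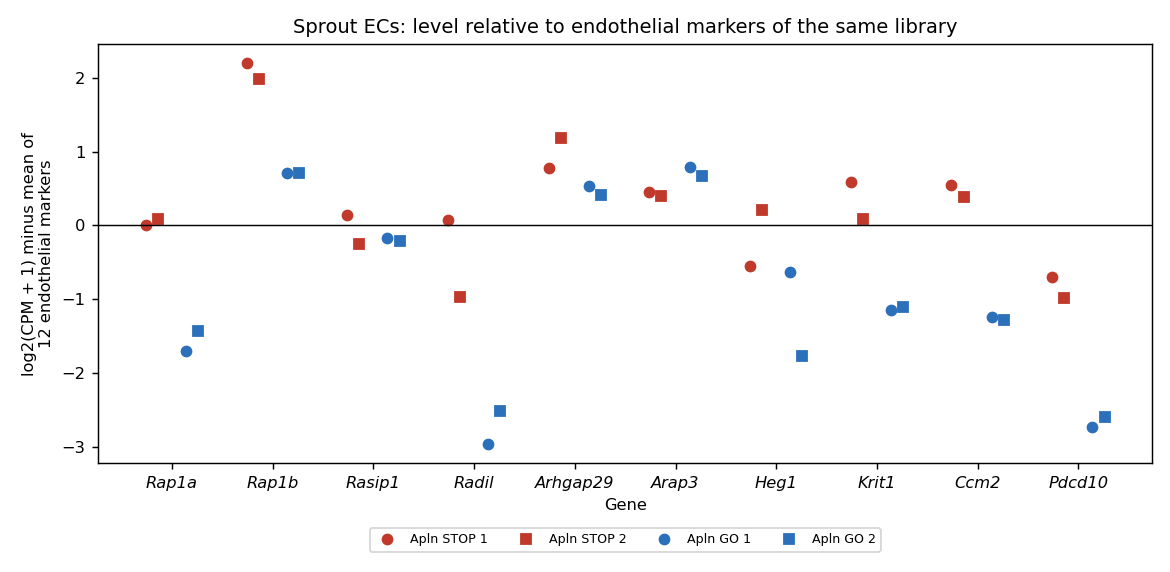
Each member in each sprout EC library as log2(CPM + 1) minus the mean of 12 endothelial markers in the same library; 0 is the marker mean, red is Apln STOP, blue Apln GO, and the shape gives the replicate. Rasip1 overlaps between groups, Arap3 lies lower in STOP by 0.31, and Rap1b stands at 1.98 and 2.20 in STOP and at 0.70 and 0.71 in GO.

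Per length, in TPM (the share of transcripts after correction for gene length) from the deposited RSEM tables, Rap1b was the highest member in both groups, at 176 ± 21.2 TPM (SD, n = 2) in GO and 116 ± 1.02 TPM in STOP. In GO it was followed by Arap3 (67.2 ± 10.7 TPM), Rap1a (60.7 ± 0.99 TPM), Rasip1 (59.4 ± 7.29 TPM), Arhgap29 (58.9 ± 9.52 TPM), Pdcd10 (53.0 ± 1.65 TPM) and Ccm2 (48.1 ± 5.53 TPM), neighbours that did not differ beyond their spread. Heg1 (21.0 ± 13.1 TPM), Krit1 (15.7 ± 1.46 TPM) and Radil (8.25 ± 1.17 TPM) closed the order. In STOP, Pdcd10 (48.7 ± 0.94 TPM), Rap1a (46.4 ± 8.24 TPM) and Ccm2 (39.8 ± 1.68 TPM) came after Rap1b, and Arhgap29 (21.0 ± 6.63 TPM), Rasip1 (16.4 ± 0.898 TPM) and Arap3 (13.4 ± 1.38 TPM) followed. Arap3 thus had rank 2 of the 10 in GO and rank 7 in STOP, which follows from the fold changes above and is no separate evidence. Krit1 (10.8 ± 1.47 TPM), Radil (10.6 ± 4.03 TPM) and Heg1 (10.1 ± 5.16 TPM) did not differ from each other beyond their spread.

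The HTSeq counts of Rap1a were 48.1% to 49.1% of the RSEM expected counts in the 4 sprout libraries and those of Pdcd10 30.5% to 32.9%, whereas the other 8 members lay between 97.9% and 106%. Of the 50-base windows of the longest coding transcript, 9.46% in Rap1a and 21.2% in Pdcd10 also occur in transcripts of other genes, for Pdcd10 in the processed pseudogene Gm14253 and for Rap1a mostly in the processed pseudogene Gm9392. The levels of both genes thus depend on the counter, while their log2 fold changes with RSEM were −0.24 for Rap1a and 0.02 for Pdcd10. In Rasip1 34.6% of the windows occur in transcripts of other genes, most of all Izumo1, while its HTSeq counts were 97.9% to 102% of the RSEM counts.

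In tumor ECs no difference of a member between Apelin-depleted and wild-type passed the test. Of 13073 genes tested with edgeR's quasi-likelihood test, 0.00765% were called decreased in Apelin-depleted libraries, which is Apln alone, and 0% increased. Of the 10 members, all tested, 0 were called in either direction, 0 had an unadjusted p under 0.05 (2.94% of all genes were lower and 1.87% higher at that level), and 0 were called by DESeq2 (0.395% of its 12665 genes decreased and 0.0632% increased). No member had groups without overlap, against 1.27% of all genes lower and 1.06% higher. The median log2 fold change was 0.12 over the members, 8 higher and 2 lower in the depleted group, and −0.03 over all genes. In the same libraries all 12 endothelial markers had higher means in the depleted group with 0 called and a median of 0.36, and their summed level was 11028 to 14152 CPM against 8392 to 12451 CPM. Relative to the mean of the endothelial markers in the same library, 7 members were lower and 3 higher in the depleted group, where 77.1% of all genes tested were lower, and relative to Pecam1 alone 6 were lower and 4 higher. On the scale of the marker mean Krit1 was lower in all depleted libraries (−4.87 to −4.47) than in all wild-type libraries (−4.41 to −3.10), a difference of −0.76 that was −0.48 relative to Pecam1, and the groups of the other 9 members overlapped. On this scale 5.01% of all genes were lower without overlap and 0.275% higher. Pluripotent cell markers summed to at most 23.8 CPM in any tumor library. Mesenchymal and mural markers summed to 83.2 to 220.3 CPM in depleted and 83.7 to 4707 CPM in wild-type libraries, blood cell markers to 49.5 to 1000.2 and 49.6 to 623 CPM, and epithelial and tumor cell markers to 17.5 to 217 and 12.6 to 67.0 CPM. The sort had kept CD45− cells only. None of the tested genes of these lists was called, and their part in the values of the members was not tested.

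Arap3 had 118, 238 and 219 CPM in the depleted libraries and 74.7, 143 and 196 CPM as lowest, median and highest wild-type library. The groups overlapped, with 2 depleted libraries above all wild-type ones. The log2 fold change was 0.43 (SE 0.33), with an approximate 95% interval from −0.22 to 1.08 and an edgeR adjusted p of 1.00. Rasip1 had 147, 459 and 228 CPM in the depleted libraries and 195, 263 and 306 CPM as lowest, median and highest in wild-type. Depleted replicate 2 alone was above all wild-type libraries and replicate 1 below them. The log2 fold change of 0.13 (SE 0.33, approximate 95% interval −0.52 to 0.79, edgeR adjusted p = 1.00) turned to −0.44 without depleted replicate 2. Sprout and tumor ECs come from separate tables, and whether the changes differ between them was not tested.

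**Figure D3:**
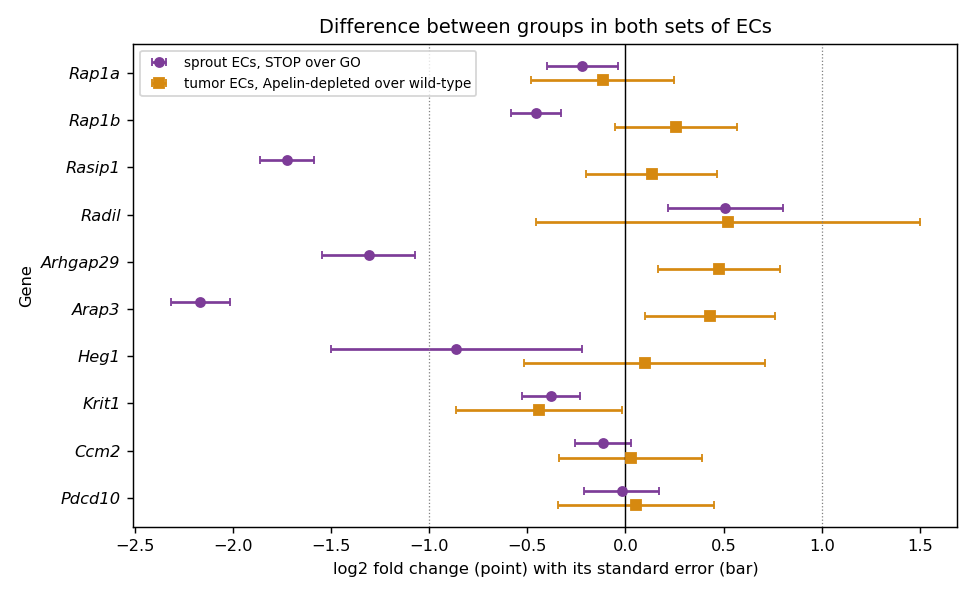
The log2 fold change of each member (point) with its standard error (bar) in sprout ECs (purple, STOP over GO) and tumor ECs (orange, Apelin-depleted over wild-type); dotted lines mark a log2 fold change of −1 and 1. Arap3, Rasip1 and Arhgap29 lie below −1 in sprouts and between 0.13 and 0.48 in tumors, and every tumor value lies within 1 of 0.

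Arhgap29 had 421, 202 and 428 CPM in the depleted libraries and 161, 260.1 and 321 CPM as lowest, median and highest in wild-type, with replicates 1 and 3 above all wild-type libraries. Its log2 fold change of 0.48 (SE 0.31, edgeR adjusted p = 1.00) was the largest upward one after Radil and stayed above 0 with each library left out. Radil varied most, with 0.49 to 25.4 CPM in the depleted and 1.13 to 22.8 CPM in the wild-type libraries. Depleted replicate 3 held 4 counts of it and wild-type replicate 6 held 8, and the other libraries 35 to 361. Its log2 fold change of 0.52 (SE 0.98, edgeR adjusted p = 1.00) turned to −0.40 without depleted replicate 2.

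Rap1b had 248, 387 and 293 CPM in the depleted libraries and 136 to 363 CPM in wild-type, with a log2 fold change of 0.26 (SE 0.31), or 0.06 without depleted replicate 2. Rap1a had 67.5, 80.1 and 65.9 CPM against 32.3 to 108 CPM, with −0.12 (SE 0.36). The GTPases overlapped widely between groups, and both had an edgeR adjusted p of 1.00.

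Heg1 again had the widest spread among the CCM genes. It had 146, 184 and 77.7 CPM in the depleted libraries and 24.7 to 242 CPM in wild-type, where 3 libraries lay at 189 to 242 CPM and 3 at 24.7 to 54.4 CPM. The log2 fold change of 0.10 (SE 0.61) turned to −0.19 without depleted replicate 2. Krit1 had 30.2, 25.3 and 29.2 CPM against 23.5 to 59.9 CPM, with a log2 fold change of −0.44 (SE 0.42). Ccm2 had 36.4, 105 and 82.0 CPM against 50.1 to 85.6 CPM, and 0.03 (SE 0.37), which turned to −0.31 without depleted replicate 2. Pdcd10 had 29.9, 26.9 and 47.0 CPM against 27.3 to 40.4 CPM, and 0.06 (SE 0.40), which turned to −0.23 without depleted replicate 3. All 4 CCM genes had an edgeR adjusted p of 1.00.

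**Figure D4:**
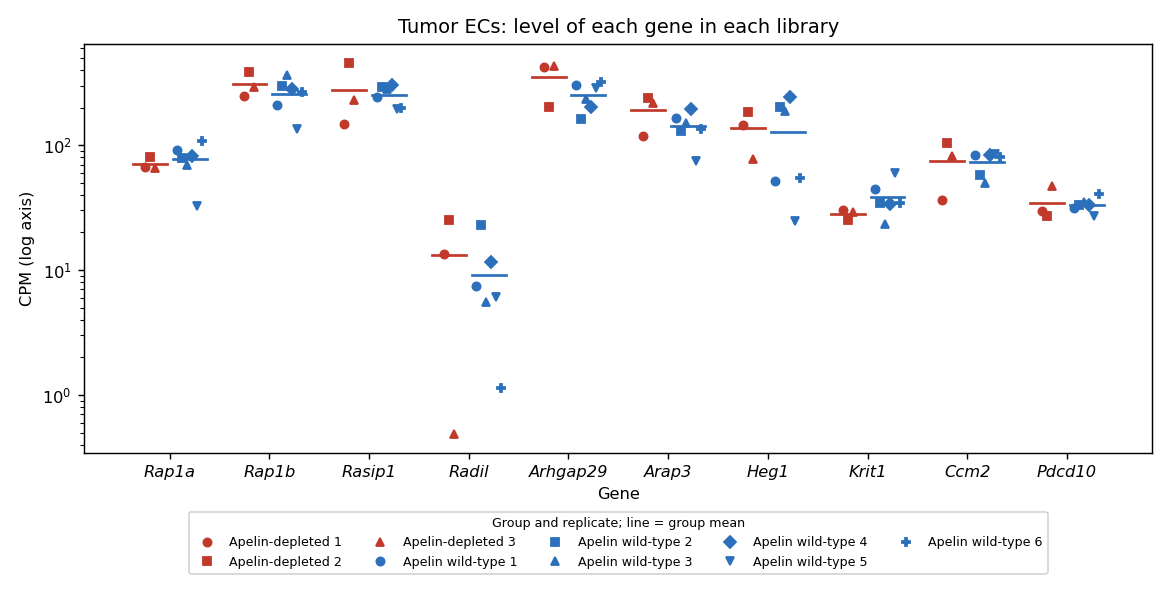
Level of each member in CPM (log axis) in each tumor EC library; red points are Apelin-depleted, blue points Apelin wild-type, the marker shape gives the replicate and the line the group mean. The groups overlap for all 10 members, and depleted replicate 2 (red square) is the highest library of all for Rasip1 at 459 CPM.

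Per kilobase of the RSEM gene length, Rap1b (134 ± 40.4 CPM per kb, SD, n = 6), Rasip1 (80.3 ± 15.3), Arhgap29 (49.4 ± 12.3), Ccm2 (39.3 ± 8.14), Rap1a (31.4 ± 10.4), Arap3 (27.0 ± 7.77), Heg1 (26.6 ± 19.6), Pdcd10 (17.3 ± 2.26), Krit1 (6.26 ± 2.04) and Radil (2.46 ± 2.02) followed each other in wild-type tumor ECs. From Arhgap29 to Heg1 neighbours did not differ beyond their spread. The tumor tables give no RSEM counts, so the ranks of Rap1a and Pdcd10, whose HTSeq counts in sprouts were below their RSEM counts, are less certain. Rap1b was highest, and Krit1 and Radil lowest, in tumor ECs as in GO sprouts.

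The genes whose course over the 9 tumor libraries came nearest to Arap3 were Orc3, Marcksl1, Sh2b3, Tnfrsf1a and Parva, with a root mean square difference of 0.18 to 0.24 between mean-centred log2(CPM + 1) profiles, against a median of 0.86 over 13072 genes. Nearest to Rasip1 were Tspan3, Arhgap23, Gnas, Ubqln1 and Ivns1abp, at 0.15 to 0.20 against a median of 0.84. Arap3 and Rasip1 differed from each other by 0.39, rank 292 from the side of Arap3. The libraries share the number of sorted cells and differ in depth, and the likeness is a description.

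Beyond the members, 51 other genes of the pathway were read in both sets. In sprout ECs all 51 were tested, 6 were called decreased in STOP and 0 increased, against 3.03% and 0.852% of all genes, and their median log2 fold change was −0.36 with 38 lower and 13 higher. Of the 10 Rap activators, 3 fell, Rasgrp3 from 124 ± 13.5 to 31.3 ± 7.53 CPM (log2 fold change −1.99, SE 0.19, edgeR adjusted p = 0.00434), Dock4 from 42.9 ± 6.29 to 16.5 ± 0.163 CPM (−1.38, SE 0.18, adjusted p = 0.00926), and Rapgef3, the cAMP sensor Epac1, from 23.0 ± 0.103 to 9.01 ± 3.16 CPM (−1.36, SE 0.28, adjusted p = 0.0327). Of the 7 Rap inactivators, 1 fell, Sipa1 (−1.57, SE 0.16, adjusted p = 0.00437), from 123 ± 14.0 to 41.4 ± 5.39 CPM. Activators and an inactivator of Rap1 were thus lower in the same libraries.

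Ccm2l, the EC homolog of Ccm2 that binds Krit1, fell furthest of the list (−2.28, SE 0.40, edgeR adjusted p = 0.0218), from 8.48 ± 1.14 to 1.75 ± 0.751 CPM. The GTPase gene Rhoc also fell (−1.26, SE 0.26, adjusted p = 0.0471). Of the 14 CCM partners and MEKK3 pathway genes these data therefore had 1 called, and Map3k3 (−0.51, edgeR adjusted p = 0.0686), Klf2 (0.56, adjusted p = 0.127) and Klf4 (−0.42, adjusted p = 0.646) were not. The Rac activator Tiam1 (−0.85, adjusted p = 0.0257) and the Pdcd10-binding kinase gene Stk26 (0.94, adjusted p = 0.0492) passed on p and not on the fold. Without STOP replicate 1, or without GO replicate 1, 2 of the 51 genes were called in place of 6. The endothelial markers moved the same way, with a median log2 fold change of −1.96. Dock4, Rapgef3, Sipa1 and Rhoc fell less than this median, Rasgrp3 (−1.99) about as much and Ccm2l more. All 6 fell further than Pecam1 (−0.80). The 6 genes were not read relative to the markers of each library, and the part of the markers in these decreases was not tested.

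**Figure D5:**
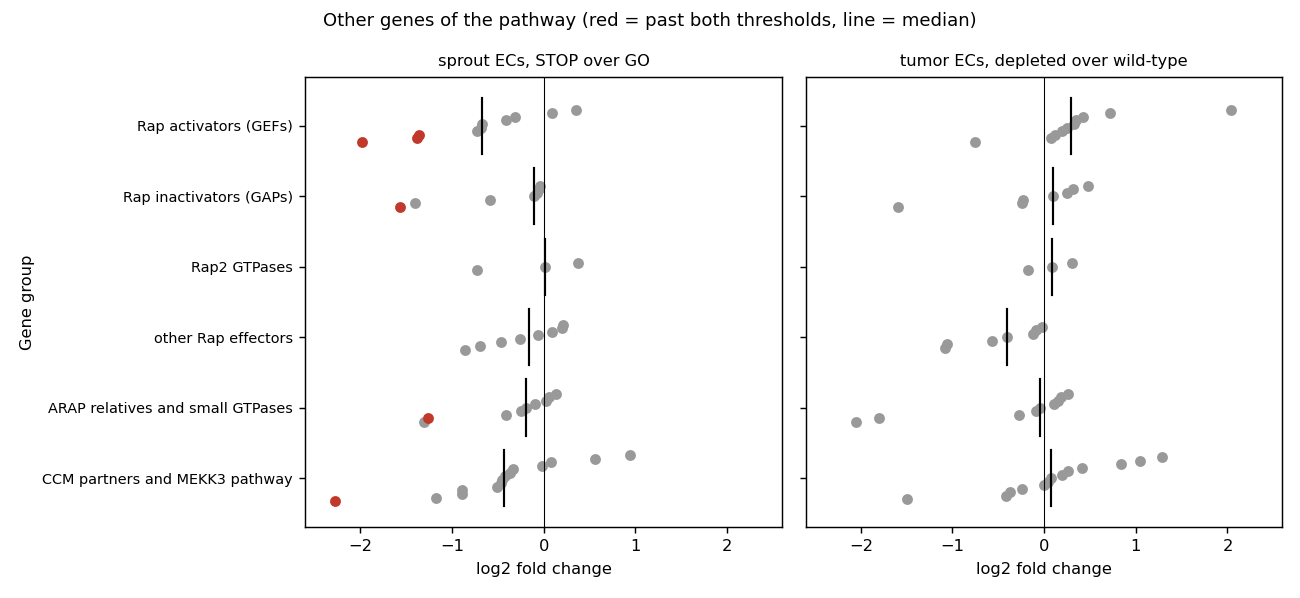
The log2 fold change of 51 other pathway genes by group (rows) in sprout ECs (left, STOP over GO) and of 49 of them in tumor ECs (right, Apelin-depleted over wild-type); red points passed both thresholds and the black line is the group's median. The 6 red points are all decreases in sprouts, 3 of them among the Rap activators, and no point is red in tumors.

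In tumor ECs 49 of the 51 were tested, with 0 called by edgeR in either direction (1 lower and 2 higher at an unadjusted p under 0.05) and 1 called by DESeq2, and the median log2 fold change was 0.08. Of the 6 genes that fell in sprouts, all 6 had log2 fold changes above 0 in tumor ECs (0.10 to 0.43), as had 6289 of 13073 genes tested. None passed the test (edgeR adjusted p = 1.00). All 12 endothelial markers were also higher in the depleted group, with a median of 0.36, and their part in this was not tested. Arap1, the relative of Arap3 that is also an Arf GAP, had 11.4, 13.6 and 8.29 CPM in the depleted libraries and 26.0, 41.1 and 89.9 CPM as lowest, median and highest in wild-type. Its groups did not overlap, and wild-type replicate 4 was far above the others. The log2 fold change of −2.05 (SE 0.52) had an adjusted p of 0.686 with edgeR and 0.0145 with DESeq2. In sprouts Arap1 differed little (0.06, SE 0.16, edgeR adjusted p = 0.848).

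Thbs1, which encodes an inhibitor of angiogenesis, thrombospondin 1, had 418, 1246 and 139 CPM in the depleted libraries and 138 to 333 CPM in wild-type (1.29, SE 0.46, edgeR adjusted p = 0.957). Klf4 had 131, 476 and 84.6 CPM against 53.7 to 144 CPM (1.05, SE 0.45, edgeR adjusted p = 1.00). For both genes depleted replicate 2 was the highest library and at least 1 depleted library lay within the wild-type range.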

How the data were processed

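The members, the lists of pathway and marker genes and the tests were chosen with earlier results of these data known. For sprout ECs the authors aligned reads to mm10 with STAR 2.5.0a, counted them per gene with HTSeq 0.6.1p1 and deposited whole-number counts without normalization. The authors also deposited expected counts and TPM from RSEM 1.2.25. For tumor ECs the authors deposited whole-number counts per gene from featureCounts (Subread 1.6.2). The submitters' processing notes name Trim Galore 0.5.0, Bowtie2 2.3.4.1 and SAMtools 1.9 for these libraries, whereas the study's methods name STAR. HTSeq leaves out reads with several alignments, which lowers genes with near-identical copies. Entries tallied as not unique made up 42.6% to 49.6% of the HTSeq tally in sprouts, which need not equal the share of reads. Whether strand was used in counting is not given in the sources used here.

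Each set was fitted once across all genes with edgeR 4.0.16 in R 4.3.3 (TMM, filterByExpr with a minimum count of 10, robust quasi-likelihood test, Benjamini-Hochberg adjustment), calling an adjusted p under 0.05 with an absolute log2 fold change over 1. CPM use TMM library sizes, and the marker scale adds a pseudocount of 1. The scripts were tested on simulated data. Alternatives were DESeq2 1.42.0, its size factors, no filter, RSEM expected counts rounded to whole numbers, the replicate number as a block, and each library left out. The crossed block was added after the values were seen. Named were all members, Apln, pathway genes called and, in tumor ECs, the 3 pathway genes of lowest p. In sprouts Tiam1 and Stk26, past the p threshold alone, and Map3k3, Klf2 and Klf4 of the MEKK3 pathway were also named. The markers named were Pecam1, Cdh5, Dppa5a and Fgf4, and for Arap3 and Rasip1 the 5 nearest profiles were given. Each tumor library came from 100 cells, and precision is given by the spread between replicates, which includes counting error.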

Additional observations from a re-analysis of the deposited data

Results flagged for a closer look

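In the group of 6 Apelin wild-type tumor libraries, 20 values were checked for a library far from the others (members, other named genes and marker list means), and 2 had one, where chance would pick about 1 in 20. None was a member. Arap1 had 89.9 CPM in wild-type replicate 4 and 26.0 to 49.7 CPM in the other libraries of the group. The mean log2(CPM + 1) of the mesenchymal and mural markers was 7.11 in wild-type replicate 2 and 2.63 to 3.71 in the others. Without wild-type replicate 2 the log2 fold changes in tumor ECs were 0.40 for Arap3, 0.18 for Rasip1, 0.38 for Arhgap29 and −0.04 for Ccm2, and those of Radil and Heg1 moved from 0.52 to 1.03 and from 0.10 to 0.28.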

How the results depend on the processing

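In sprout ECs the sign of the log2 fold change was kept by 9 of the 10 members under every alternative run, the exception being Pdcd10 (−0.06 to 0.03). Genes called decreased, 441 in the fit reported, numbered 41 with the replicate block, 933 with the crossed replicate block and 135 to 548 with 1 library left out. Genes called increased, 124, numbered 190 with DESeq2, 222 without the filter, 3 with the replicate block, 302 with the crossed replicate block and 12 to 341 with 1 library left out. Pathway genes called decreased, 6, numbered 8 with DESeq2, 4 with RSEM expected counts, 1 with the replicate block and 9 with the crossed replicate block. Same-numbered sprout libraries correlated at −0.43 in their deviations from the group means and cross-numbered ones at 0.43. With 2 libraries a group the deviations mirror each other, so this is 1 value and not separate observations. Its sign puts STOP replicate 1 with GO replicate 2, and STOP replicate 2 with GO replicate 1. Same-numbered tumor libraries correlated at −0.14 to 0.06, and the numbers were not used as pairs in the fit reported. In tumor ECs, genes called decreased, 1, numbered 50 with DESeq2, 7 without the filter, 2 with the replicate block and 1 to 2 with 1 library left out, and genes called increased, 0, numbered 8 with DESeq2 and 9 without the filter. The 1 pathway gene called by DESeq2 was Arap1. Log2 fold changes of tumor ECs changed sign with the replicate block for Rasip1 (−0.13) and Radil (−0.60). With 1 library left out they ranged from −0.27 to 0.0035 for Rap1a, −0.44 to 0.44 for Rasip1, −0.40 to 1.09 for Radil, −0.19 to 0.38 for Heg1, −0.31 to 0.36 for Ccm2 and −0.23 to 0.20 for Pdcd10. They kept their sign for Rap1b (0.06 to 0.39), Arap3 (0.24 to 0.69), Arhgap29 (0.31 to 0.75) and Krit1 (−0.55 to −0.27). No alternative called a member in tumor ECs. The cause of these changes was not tested. With 2 libraries a group in sprouts, a lone library left in a group was assumed to vary like the others.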
